A study of Mus musculus with 6 samples.

Results

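Glypicans and syndecans are the main heparan sulfate proteoglycans of the cell surface, and the family examined here holds 10 genes, Gpc1 to Gpc6 and Sdc1 to Sdc4. The members were taken as the probe sets whose platform annotation gives exactly 1 of these symbols, with the brightest probe set kept for each gene. All 10 were found among 22180 genes with such a probe set, and all 10 had a mean signal above the background level. Hippocampal RNA came from 3 quadruple knockout and 3 wildtype mice, all of them male and taken at postnatal day 21. Each sample was read on 1 array of the type Affymetrix Mouse Gene 2.0 ST. The quadruple knockout mice carry Tnc -/-, Tnr -/-, Bcan -/- and Ncan -/- and so are meant to lack tenascin-C, tenascin-R, brevican and neurocan, whereas the wildtype mice carry none of these alleles. The methods name SV129 mice and call the animals siblings, a figure legend of the study calls the hippocampus samples dependent, and the labels call the samples of a group biological replicates. How far the alleles come from another strain background is not given in the sources used here.

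A glypican is held to the outer membrane by a lipid (GPI) anchor, and a syndecan spans the membrane with a short cytoplasmic tail. Both carry heparan sulfate, long sulfated sugar chains that bind growth factors, morphogens such as hedgehog and Wnt proteins, and synaptic receptors. In the brain, Gpc4 and Gpc6 are known as proteins that astrocytes release and that help excitatory synapses to form, and syndecans are known from dendritic spines and growing axons. The question put to the arrays was whether the loss of 4 secreted matrix molecules goes with other levels of these surface proteoglycan transcripts.

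Signals are log2 values as deposited, a difference is the quadruple knockout mean less the wildtype mean, and ± gives the SD over 3 arrays, with SE for a standard error. The background level was set at 6.03, which is where 95% of 1108 probe sets for olfactory receptors lie below. The limma model pools what all probe sets show about the spread, and its p values were adjusted over all 34472 of them. For 1 gene in 3 arrays against 3, the two-sided p of an exact permutation test can be no smaller than 0.1. Signals of different probe sets are not set against each other, since probes differ in how strongly they bind.

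Of the targeted genes, Bcan read 5.72 to 5.85 in the knockout, against 10.36 to 10.68 in the wildtype. The range of Ncan was 6.35 to 6.81 in the knockout, against 11.73 to 11.82 in the wildtype. Tnc and Tnr transcripts were still read in the knockout, at 7.76 to 8.12 and 11.56 to 11.66, against 7.89 to 8.43 and 11.66 to 11.81 in the wildtype, and probes outside a deleted part check nothing. Markers of hippocampal excitatory neurons (5 of 5) and of dentate granule cells (5 of 5) were above background, the Y-linked genes Eif2s3y, Kdm5d and Uty were above it in all 6 arrays, and Xist was below it in all 6, as the male label requires. In the CA1 pyramidal cell markers, knockout replicate 3 was far from the others of its genotype, with a mean signal of 8.97 beside 8.17 and 8.32 in the other knockout arrays, and so was wildtype replicate 2, with 8.72 beside 8.13 and 8.14 in the other wildtype arrays.

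Gpc3 was the member that differed most between the genotypes. It read 7.28, 7.06 and 7.32 in the 3 quadruple knockout arrays, against 6.83, 6.70 and 6.81 in the wildtype arrays. The genotypes did not overlap, and knockout replicate 2 came closest to the wildtype. Gpc3 encodes a glypican known to restrain hedgehog signalling and to bind Wnt proteins during growth of the body. Its mean of 7.22 ± 0.14 in the knockout, against 6.78 ± 0.07 in the wildtype (SD, n = 3 each), gave a log2 difference of 0.44 (SE 0.09) or 1.36-fold. The 95% interval of the fold ran from 1.17 to 1.57. The unadjusted limma p was 0.0018, the rank 170 of 34472 probe sets, and the limma adjusted p was 0.361, so Gpc3 did not pass the adjusted test. The study picked Gpc3 as an altered gene on these same arrays, so its place at the head of the family is not independent evidence.

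**Figure D1:**
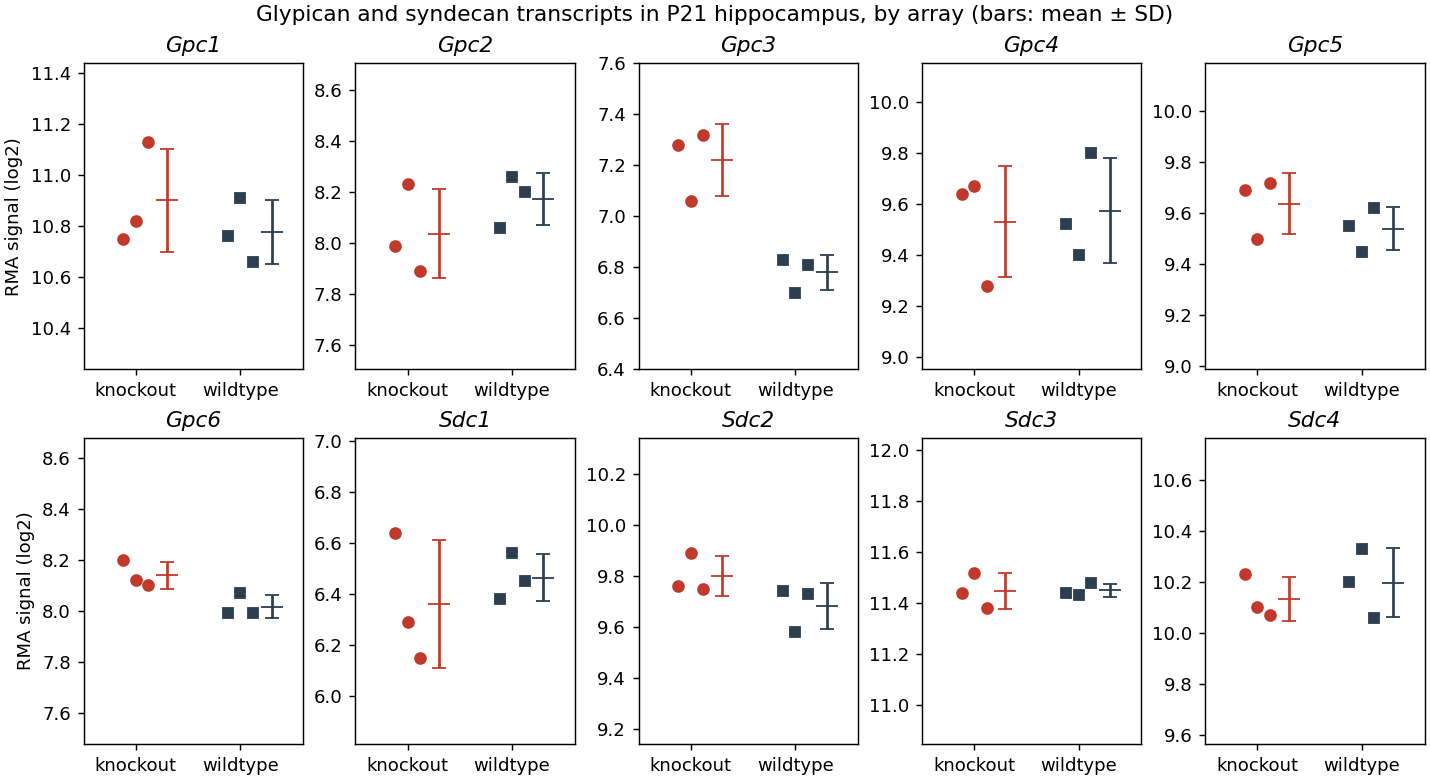
Signal of each glypican and syndecan gene in each array (log2, RMA), with quadruple knockout arrays as circles on the left and wildtype arrays as squares on the right of each panel; every panel spans the same number of log2 units and the bars give mean ± SD over 3 arrays. Gpc3 is parted widely between the genotypes, Gpc6 and Sdc2 narrowly, and the other 7 overlap.

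The signal of Gpc3 was also set against the mean of the other 5 glypicans within each array, a ratio that the scaling of an array does not move. This quantity was -1.98, -2.21 and -1.90 in the knockout arrays and -2.35, -2.52 and -2.45 in the wildtype arrays. The 2 groups did not overlap. Its mean was -2.03 ± 0.16 in the knockout, against -2.44 ± 0.09 in the wildtype (SD), a difference of 0.41. This restates the parting of Gpc3 for which the gene was singled out, against a mean that hardly varied, and is given as a description with no test. The mean of the other 5 glypicans itself ran from 9.22 to 9.27 in the knockout, against 9.18 to 9.26 in the wildtype, and these ranges overlap.

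Gpc3 and Gpc4 lie next to each other among the measured genes of the X chromosome and are read from the same strand. Gpc4, known both as a protein that astrocytes release and as a gene of dentate granule neurons, did not share the pattern of its neighbour. It read 9.64, 9.67 and 9.28 in the knockout, against 9.52, 9.40 and 9.80 in the wildtype. Knockout replicate 3 was the lowest of all arrays and wildtype replicate 3 the highest, and the other 4 overlap. The log2 difference was -0.04 (SE 0.14, limma adjusted p = 0.944), and its sign was kept in 11 of 15 alternative settings. Several of these settings alter only the test and cannot change the sign. Next after Gpc3 in the order of start positions came the microRNA gene Mir717, and whether it lies outside Gpc3 was not looked at. Mir717 was below background in the mean, at 4.10 ± 0.06 against 4.20 ± 0.15 (SD, n = 3 each). Of the 20 measured genes nearest to Gpc3 in this order, 10 on each side, 0 had a limma adjusted p under 0.1. An unadjusted limma p under 0.05 was found for 4 of them, where 8.32% of all genes had one. The median log2 difference of these 20 was -0.04.

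The upstream sequences of these 2 neighbours are shown because the genes share an orientation and a chromosomal place but not a difference between the genotypes. Each is the stretch of 250 bases before the gene start in RefSeq (GRCm38.p6, minus strand), with capitals on the GC box, a short motif bound by Sp1-like factors, searched as GGGCGG and on the other strand as CCGCCC. The Gpc3 stretch is chrX:52613975-52614224 and the Gpc4 stretch is chrX:52164924-52165173.
Gpc3: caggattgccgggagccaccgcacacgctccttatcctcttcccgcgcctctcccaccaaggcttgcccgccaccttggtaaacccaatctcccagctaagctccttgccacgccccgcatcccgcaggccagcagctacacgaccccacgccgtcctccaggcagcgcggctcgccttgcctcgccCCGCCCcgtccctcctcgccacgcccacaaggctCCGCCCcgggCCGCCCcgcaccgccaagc
Gpc4: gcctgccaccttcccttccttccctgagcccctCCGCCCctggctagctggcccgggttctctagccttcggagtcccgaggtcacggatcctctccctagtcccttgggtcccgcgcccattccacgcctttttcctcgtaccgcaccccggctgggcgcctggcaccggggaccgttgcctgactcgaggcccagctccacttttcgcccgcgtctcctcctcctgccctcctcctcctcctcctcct
The Gpc3 stretch holds 3 GC boxes and 25 CG dinucleotides with 71.6% G and C, and the Gpc4 stretch holds 1 GC box and 18 CG dinucleotides with 68.4%. Neither holds the TATA box, searched as TATAAA on both strands. Of 32841 such stretches in the table, 32.7% hold a GC box and 12.4% a TATA box, and the median CG count is 6. A stretch was found for 7 of the 10 members and each held a GC box, from 1 in Gpc4 and Gpc5 to 4 in Sdc4, so the motif does not set Gpc3 apart within the family. A match to a motif is a description of the letters and no measure of binding.

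The astrocyte glypicans Gpc5 and Gpc6 had small positive differences. Gpc6, which is known to raise AMPA receptor levels at young synapses, read 8.20, 8.12 and 8.10 in the knockout and 7.99, 8.07 and 7.99 in the wildtype. The groups did not overlap, but the gap between the lowest knockout and the highest wildtype array was narrow. The log2 difference was 0.12 (SE 0.07, limma adjusted p = 0.631), and the ordinary test, which uses the spread of this gene alone, gave an unadjusted p of 0.0365 and an adjusted p of 0.588. Gpc5, a glypican of mature astrocytes, read 9.69, 9.50 and 9.72 against 9.55, 9.45 and 9.62. Its groups overlap, since knockout replicate 2 lay below 2 of the 3 wildtype arrays, and its log2 difference was 0.09 (SE 0.09, limma adjusted p = 0.763). Gpc5 and Gpc6 also follow each other on chromosome 14, with 1 measured gene between them.

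The neuronal glypicans Gpc1 and Gpc2 differed in opposite directions and by less than their spread. Gpc1, which binds Slit guidance proteins and FGF, read 10.75, 10.82 and 11.13 in the knockout, against 10.76, 10.91 and 10.66 in the wildtype. One array, knockout replicate 3, carried the higher knockout mean. The log2 difference was 0.12 (SE 0.12, limma adjusted p = 0.776) over all arrays and 0.0041 without that array. The other probe set of Gpc1 read 7.27 ± 0.10 against 7.26 ± 0.06 (SD, n = 3 each). Gpc2, known as cerebroglycan and from growing axons, read 7.99, 8.23 and 7.89 in the knockout and 8.06, 8.26 and 8.20 in the wildtype. Knockout replicate 2 sat within the wildtype range and the other 2 knockout arrays below it. The log2 difference was -0.14 (SE 0.11, limma adjusted p = 0.719), and without knockout replicate 2 it was -0.23 with an adjusted p of 0.475. A further probe set shared between Gpc2 and another gene was not used.

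Among the syndecans, Sdc2 alone had groups that did not overlap. Sdc2, which drives the ripening of dendritic spines in rat hippocampal neurons and is also made by vascular cells, read 9.76, 9.89 and 9.75 in the knockout, against 9.74, 9.58 and 9.73 in the wildtype. The lowest knockout array exceeded the highest wildtype array by a margin of about the rounding of these values. Its log2 difference was 0.12 (SE 0.08, limma adjusted p = 0.687). Sdc3, the syndecan of axons and a receptor of pleiotrophin, read 11.44, 11.52 and 11.38 against 11.44, 11.43 and 11.48, so that the log2 difference was -0.0052 (SE 0.07, limma adjusted p = 0.987). Its 2 genotypes had nearly the same mean, and the 95% interval of the fold ran from 0.891 to 1.11.
Sdc4, a broadly made syndecan of cell adhesion sites, read 10.23, 10.10 and 10.07 in the knockout and 10.20, 10.33 and 10.06 in the wildtype. Its groups overlap, and the log2 difference was -0.06 (SE 0.09, limma adjusted p = 0.860). Sdc1, known from epithelia and plasma cells, lay close to the background level. It read 6.64, 6.29 and 6.15 in the knockout, against 6.38, 6.56 and 6.45 in the wildtype. The knockout arrays enclose the wildtype range, with replicate 1 above it and replicates 2 and 3 below it, and the log2 difference was -0.10 (SE 0.13, limma adjusted p = 0.836). The other probe set of Sdc1 was below background in all 6 arrays and gave a difference of 0.03 (SE 0.07).

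**Figure D2:**
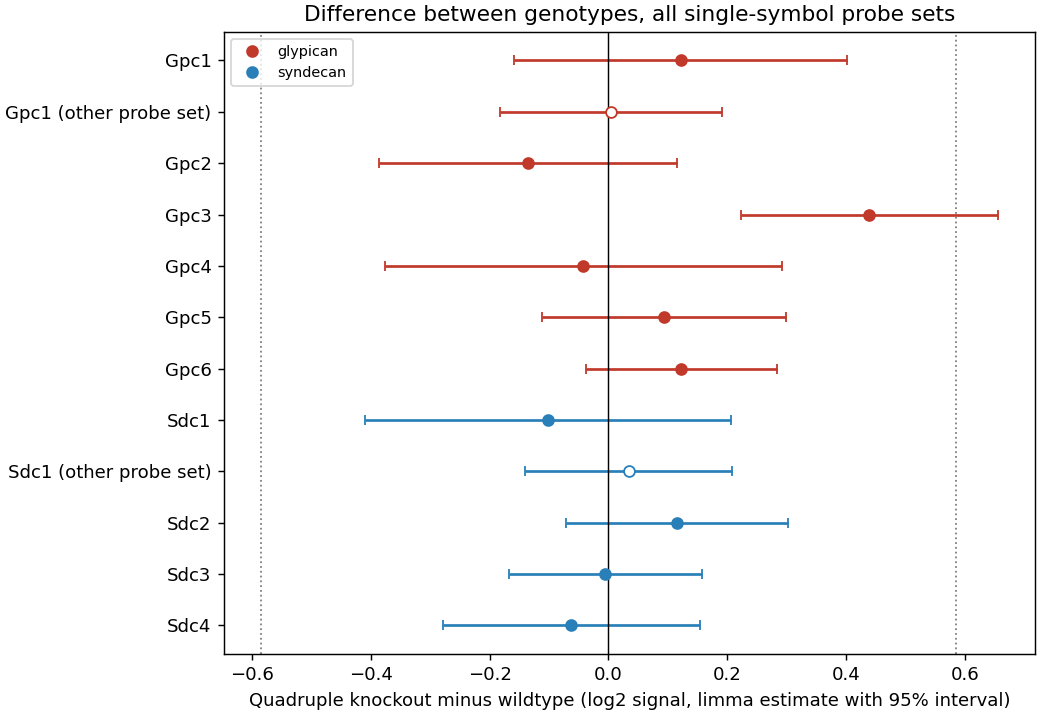
Difference between quadruple knockout and wildtype for each glypican (red) and syndecan (blue) probe set, as the limma estimate on the log2 scale with its 95% interval; open circles are the other probe sets of Gpc1 and Sdc1 and dotted lines mark 1.5-fold. Only the interval of Gpc3 leaves out 0, and only that interval reaches a dotted line.

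Across the family, 0 of 10 members passed the limma adjusted p of 0.05, where 0.139% of all probe sets did. Without adjustment, limma gave a p under 0.05 to 1 member that was higher, Gpc3, and to 0 that were lower, where 9.05% of all probe sets had such a p, 3.91% higher and 5.14% lower. By the ordinary test 0 passed the adjusted p and 2, Gpc3 and Gpc6, had an unadjusted p under 0.05, where 0.0696% and 8.16% of all probe sets did. Of the 10 members, 3 (Gpc3, Gpc6 and Sdc2) had groups that did not overlap, all with the knockout higher, where 16.1% of all 22180 genes had groups that did not overlap, 9.73% with the knockout higher and 6.39% with it lower. Gpc6 and Sdc2 overlapped after another quantile normalization, which left 1, where 14% of all genes did not overlap. Without knockout replicate 2 the count was 5, with Gpc2, lower in the knockout, and Gpc5, higher in it, added, but with 2 arrays against 3 the groups of 31.3% of all genes did not overlap.
The median log2 difference was 0.11 over the 6 glypicans, -0.03 over the 4 syndecans and 0.04 over all 10, and 0.01 over all genes. The 95% intervals of the 9 members other than Gpc3 lay within 1.5-fold in either direction, and that of Gpc3 reached beyond 1.5-fold. These intervals are not corrected for the number of genes. The pooled SD within the groups ranged over the members up to 0.21, with a median of 0.11, against a median of 0.09 over all genes above background.

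**Figure D3:**
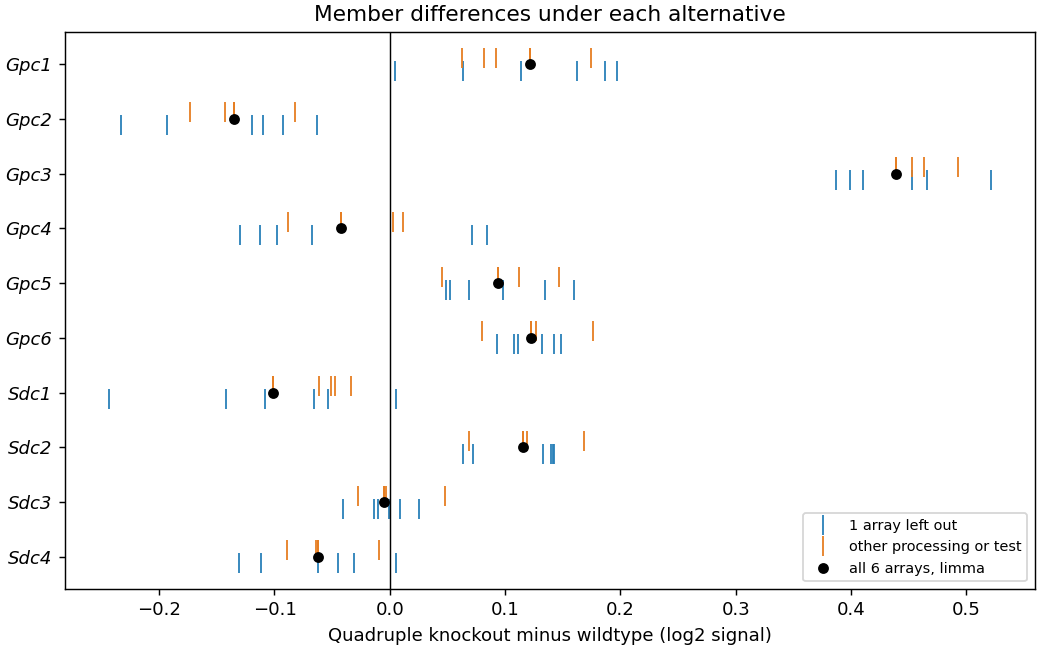
Log2 difference of each member with all 6 arrays (black), with 1 array left out (blue, 6 marks) and under another normalization, filter, probe set choice, weighting or test (orange, 9 marks, several at the same value). The marks of Gpc3 lie between 0.39 and 0.52, and those of Gpc4, Sdc1, Sdc3 and Sdc4 fall on both sides of 0.

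The signals of Gpc4, Gpc1 and Sdc3 varied with markers of some hippocampal subfields over the 6 arrays of both genotypes. No such relation passed the adjusted p of 0.05, and none was computed within a genotype. The mean of 5 dentate granule cell markers was 10.82, 10.88 and 10.55 in the knockout arrays, against 10.89, 10.75 and 11.07 in the wildtype. All 5 markers had a difference below 0, and 0 of them had an unadjusted limma p under 0.05. Gpc4 was lowest in the array where these markers were lowest, knockout replicate 3, and highest where they were highest, wildtype replicate 3. Gpc1 ran the other way, highest in knockout replicate 3 and lowest in wildtype replicate 3. Over the 6 arrays, Pearson's r of Gpc4 with these markers was 0.918 (exact permutation p = 0.0139) and Spearman's rho was 0.829 (exact permutation p = 0.0583). For Gpc1, r was -0.946 (exact permutation p = 0.00694) and rho was -0.829 (exact permutation p = 0.0583). Without the 2 arrays farthest from the median of the markers, knockout replicate 3 and wildtype replicate 3, r was 0.618 for Gpc4 and -0.675 for Gpc1 over the 4 that were left, so both relations rest in good part on those arrays. The relations were not particular to dentate markers. With the 4 CA3 pyramidal cell markers, r was -0.936 for Gpc4 (exact permutation p = 0.00278, rho = -0.943 with exact permutation p = 0.0167) and 0.949 for Gpc1 (exact permutation p = 0.0111, rho = 0.771 with exact permutation p = 0.103). Without the same 2 arrays these r were -0.889 and 0.572. With the 4 CA1 markers, r was -0.878 for Gpc4 and 0.919 for Gpc1 (exact permutation p = 0.0125 for each, rho = -0.829 and 0.829 with exact permutation p = 0.0583), and without knockout replicate 3 and wildtype replicate 2 it was -0.125 and 0.205. The syndecan gene Sdc3 varied in the same sense as Gpc4. Its r was -0.876 with the CA3 markers (exact permutation p = 0.0222, rho = -0.928 with exact permutation p = 0.0167). With the CA1 and dentate markers it was -0.794 and 0.77 (exact permutation p = 0.0417 and 0.0861). Without the 2 arrays left out for each list, these 3 r were -0.829, -0.375 and 0.555. All these are among 60 relations of the 10 members with 6 marker lists, of which 0 passed the adjusted p of 0.05. All 6 r of Gpc4 and Gpc1 had an adjusted p of 0.139, and the smallest adjusted p of a rho was 0.333. Each genotype holds only 3 arrays, too few for a value within it. In bulk RNA, fewer cells of a type and less RNA per cell cannot be told apart.

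Markers of GABAergic interneurons moved in the direction of Gpc3. Of 11 measured markers, 11 had a difference above 0, where 52.9% of all genes had one. An unadjusted limma p under 0.05 was found for 4 of them, all higher, where 4.28% of all genes were, and 0 passed the adjusted one. Their mean signal was 9.35 to 9.44 in the knockout, against 9.13 to 9.22 in the wildtype, with no overlap, and all 11 were above background. The mean of 4 Cajal-Retzius cell markers also did not overlap, at 7.24 to 7.38 against 7.10 to 7.17. All 4 had a difference above 0, only Reln, which is in both lists, had an unadjusted limma p under 0.05, and Lhx5 was below background in the mean. The mean of 8 markers of meningeal fibroblasts was 7.34 to 7.50 against 7.28 to 7.32, with 4 above 0 and 4 below. It was parted by 1 gene, decorin (Dcn), which read 8.92, 8.49 and 10.31 in the knockout, against 7.91, 8.18 and 7.72 in the wildtype (log2 difference 1.31, limma adjusted p = 0.499). The mean of the other 7, taken after the values were seen, overlapped at 7.10 to 7.21 against 7.19 to 7.23, with a difference of -0.05. The means of the other 14 of 17 marker lists overlapped, among them those of astrocytes (10.57 to 10.65 against 10.50 to 10.63). Of all single genes, 16.1% had groups that did not overlap, and no such share was taken for means of lists. Among the immediate early genes, known to be induced by neuronal activity, 10 of 10 had a difference above 0, and their mean was 8.30 to 8.50 in the knockout and 7.98 to 8.16 in the wildtype. Of these 10, 6 were higher at an unadjusted limma p under 0.05, where 4.28% of all genes were, and 0 passed the adjusted one. In Gpc3 and the interneuron markers the genotypes form separate clusters of 3 arrays, so that no correlation over the 6 arrays is given and none can be had within a genotype. The part of these shifts in the result for Gpc3 was not tested.

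**Figure D4:**
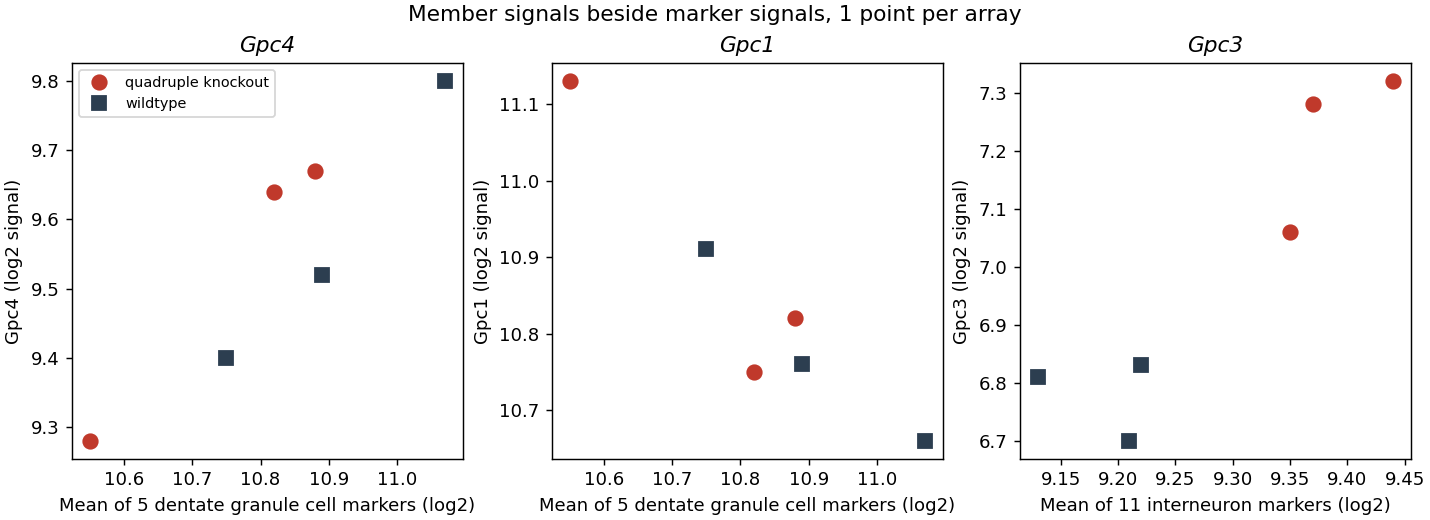
Signal of Gpc4, Gpc1 and Gpc3 (log2) against the mean signal of marker genes (log2), 1 point per array, with quadruple knockout arrays as circles and wildtype arrays as squares. Gpc4 and Gpc1 spread along the dentate granule cell markers in opposite senses with the genotypes mixed, while Gpc3 and the interneuron markers are both higher in the 3 knockout arrays.

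The genes whose pattern over the 6 arrays lay nearest to that of Gpc3, by the root mean square difference of centred log2 values among 14600 other genes above background, were Pcdh18, Elk3, Clrn1, Wls and E2f6. The distance was 0.0392 for Pcdh18 and 0.0561 for E2f6. Elk3, which encodes an ETS transcription factor, read 7.73, 7.57 and 7.83 in the knockout, against 7.42, 7.26 and 7.38 in the wildtype. As in Gpc3, the second replicate was the lowest of each genotype. All 5 had limma adjusted p values above the threshold, from 0.361 for Pcdh18 to 0.486 for Wls.

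The genes around glypicans and syndecans were read through 9 lists, from the enzymes that build heparan sulfate to the pathways that use it. Of 110 listed genes 105 were measured, and 0 passed the limma adjusted p of 0.05 or the ordinary one. Before adjustment, 10 were higher and 2 were lower with a limma p under 0.05, or 11.4% of them, where 8.32% of all genes had such a p, 4.28% higher and 4.04% lower. The median log2 difference of these genes was 0.05, against 0.01 over all genes. The medians of single lists moved with single arrays, as given beside them, and no test rests on them.

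The enzymes that start and lengthen the chain, such as Ext1 and Ext2, had 0 of 15 genes at an unadjusted limma p under 0.05 in either direction, with 13 differences above 0, where 52.9% of all genes had one, and a median of 0.07. Without wildtype replicate 1 that median was 0.011. Among 18 measured enzymes that modify or trim the chain, 2 were higher and 1 was lower at that level, with a median of 0.05 that ran from 0.021 without wildtype replicate 3 to 0.069 without wildtype replicate 2. Ndst3, which adds N-sulfate groups, read 7.53, 7.56 and 7.83 in the knockout, against 7.10, 7.48 and 7.30 in the wildtype (log2 difference 0.35, limma adjusted p = 0.514). The 3-O-sulfotransferase genes Hs3st6 and Hs3st2 had log2 differences of -0.21 and 0.29 (limma adjusted p = 0.509 and 0.535). Hs3st6 lay close to background, above it in only 4 arrays, and Hs3st2 had a mean signal below it. The other heparan sulfate proteoglycans, among them agrin and perlecan, had 0 of 9 genes at that level and a median of 0.01, which ran from 0.0048 without knockout replicate 1 to 0.047 without wildtype replicate 2.

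Of 10 genes whose products release or process glypicans and syndecans, 1 was higher and 1 was lower, each with an unadjusted limma p under 0.05. Mmp14, a membrane metalloprotease that can shed syndecans, read 7.92, 7.98 and 7.82 in the knockout, against 7.58, 7.62 and 7.76 in the wildtype (log2 difference 0.25, limma adjusted p = 0.499). Gpld1, a phospholipase that cuts GPI anchors, read 8.96, 9.02 and 8.84 against 9.16, 9.14 and 9.14 (log2 difference -0.21, limma adjusted p = 0.511). The groups of both genes did not overlap. Of the 10 genes, 5 did not overlap with the knockout higher, Mmp14 among them, and 1 with it lower, Gpld1. Over all genes these shares were 9.73% and 6.39%.

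The partners of glypicans at the synapse, such as the receptor phosphatases Ptprs, Ptprd and Ptprf, the adhesion protein gene Lrrtm4 and the receptor gene Gpr158, had 0 of 12 measured genes at an unadjusted limma p under 0.05 and a median log2 difference of 0.05, or 0.028 without knockout replicate 3. For the ligands and cytoplasmic partners of syndecans, with pleiotrophin (Ptn), syntenin (Sdcbp) and Cask among them, it was 0 of 11 with a median of 0.02, which ran from -0.0042 without knockout replicate 2 to 0.047 without wildtype replicate 3.

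Among the pathways that use heparan sulfate, FGF signalling had the most genes at that level, 5 of 14, all higher. Over all genes, 4.28% were higher at that level. The median of the FGF list was 0.05, and 0 of its genes passed the adjusted p. The median was 0.106 without knockout replicate 1 or after median centring and 0.039 without knockout replicate 3. The 5 were the target gene Etv5 (log2 difference 0.29, limma adjusted p = 0.446), the feedback inhibitors Spry4 (0.37, 0.451) and Spry2 (0.19, 0.533), and Dusp6 (0.35, 0.535) and the receptor gene Fgfr2 (0.31, 0.540), the last 2 named after their values were seen. In Etv5 the knockout arrays read 9.01, 9.07 and 9.14, against 8.86, 8.72 and 8.76 in the wildtype, without overlap. Such a shift was not particular to the FGF list, since 6 of 10 immediate early genes were higher at that level, with a median of 0.31. Whether the 2 shifts are related was not tested. The hedgehog pathway had 1 of 10 measured genes at that level, the transcription factor gene Gli3 (0.31, limma adjusted p = 0.532), with a median of 0.09 that ran from 0.034 without wildtype replicate 1 to 0.131 without wildtype replicate 3. Slit and Robo genes had 1 of 6, the guidance cue gene Slit2 (0.36, limma adjusted p = 0.509), with a median of 0.02 that was -0.00066 without wildtype replicate 1 and 0.071 without wildtype replicate 3.

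**Figure D5:**
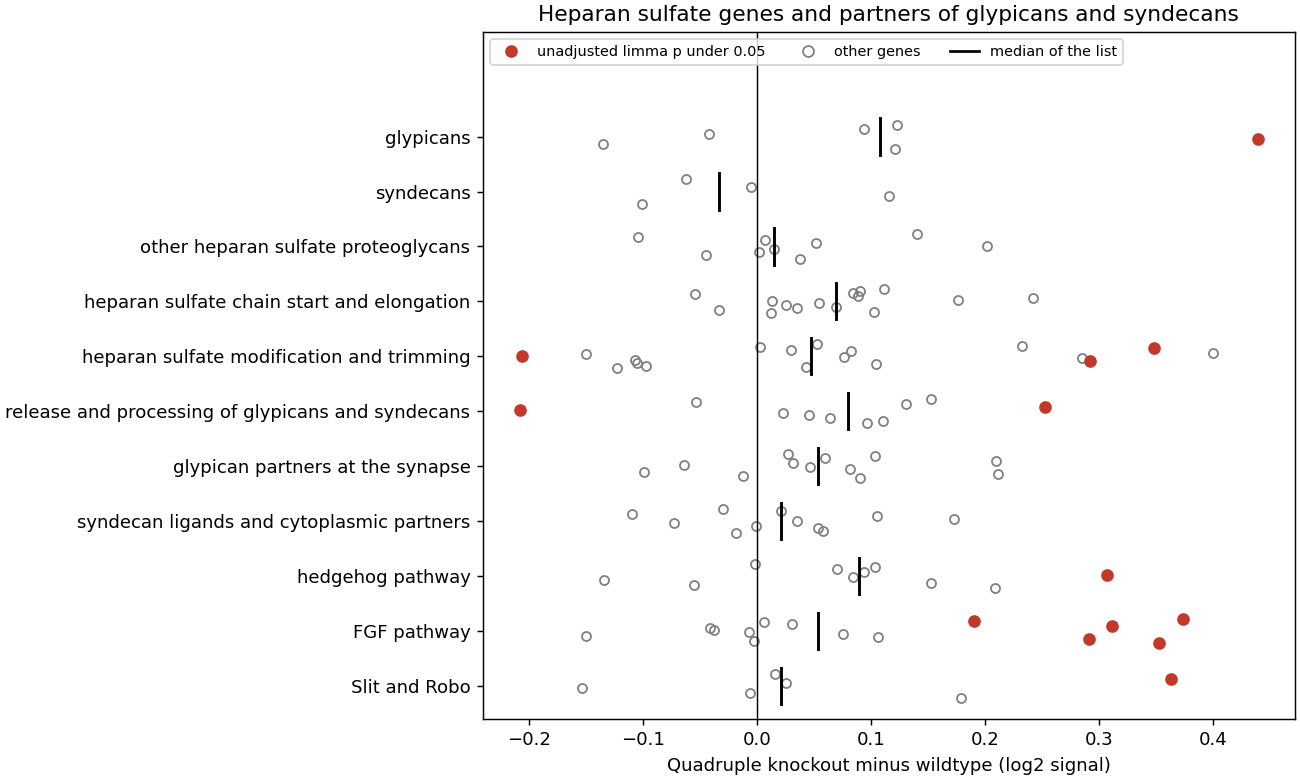
Log2 difference between quadruple knockout and wildtype for each measured gene of the glypicans, the syndecans and 9 lists around them, with red points at an unadjusted limma p under 0.05 and black bars at the list medians. Gpc3 has the largest difference of the genes drawn, and 5 of the 12 red points outside the 10 members belong to the FGF list.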

How the data were processed

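The data are 6 Affymetrix Mouse Gene 2.0 ST arrays of hippocampal RNA, 3 quadruple knockout and 3 wildtype. The authors used Affymetrix Expression Console for RMA and deposited the log2 signals. Transcriptome Analysis Console also stands in the submitters' processing notes, with version and build not given in the sources used here. Precision is limited by the number of arrays. Names came from the platform annotation (23521 of 34472 probe sets with 1 symbol), and gene order and upstream sequences came from RefSeq (GRCm38.p6).

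The comparison was made in R 4.3.3 by the limma 3.58.1 functions lmFit and eBayes, two-sided and without a block, with the Benjamini-Hochberg adjustment across every probe set. An ordinary linear model stood in for the Anova of the methods, whose form they leave unstated. For Gpc3 its unadjusted p rounds to the p that the study gives. The fold that the study gives for Gpc3 is larger than the 1.36-fold found here, and neither exceeds the 1.5-fold minimum of its methods. The test was run on simulated data first. Figures were drawn with matplotlib 3.10.9.

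The members and all gene lists were chosen with earlier results of these data known. The genes named were the members, their neighbours, the targeted genes, up to 3 genes with the smallest p in each pathway list with values where the unadjusted p was under 0.05, and the 5 genes nearest to Gpc3. Relations with marker lists were looked at after the values were seen. Alternatives were a replicate block, other variance models, weights, normalizations, a filter on dim probe sets, other probe set choices, the ordinary test and each array left out.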

Additional observations from a re-analysis of the deposited data

How the results depend on the processing

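Gpc3 was higher in the knockout in all 15 alternatives, between 0.39 and 0.52, with a limma adjusted p from 0.188 (only probe sets above background) to 0.702 (without knockout replicate 3), and 0 members passed the adjusted p in any of them. Its difference from the other 5 glypicans ran from 0.34 to 0.50 with 1 array left out. Gpc1, Gpc2, Gpc5, Gpc6 and Sdc2 also kept their direction in all 15. Several of the 15 alter only the test or the probe sets tested and leave the difference itself unchanged. These are the replicate block, the intensity trend with robust variances, the background filter, 1 probe set per gene and the ordinary test. Averaging the probe sets of a gene moved only Gpc1 and Sdc1 and left the other members, Gpc3 among them, unchanged. A kept direction in any of these, for the members they leave unchanged, was fixed in advance. Gpc4 turned to 0.0031 with array weights and 0.011 after median centring, and Sdc3 to 0.048 after median centring. With 1 array left out, the difference ran from -0.13 to 0.084 for Gpc4, from -0.24 to 0.0057 for Sdc1, from -0.041 to 0.026 for Sdc3 and from -0.13 to 0.0051 for Sdc4. At an unadjusted p under 0.05, 2 members were higher after median centring or by the ordinary test, Gpc3 and Gpc6, and with 1 array left out 1 was higher and 0 to 1 lower, Sdc1 without knockout replicate 1 and Gpc2 without knockout replicate 2. By the ordinary test 8.16% of all probe sets had such a p, and the share was not taken for median centring or with an array left out. Groups that did not overlap numbered 1 after another quantile normalization and 3 to 5 with 1 array left out. The syndecan median was 0.019 after median centring and ran from -0.056 to 0.016 with 1 array left out. Median centring moved the median of all probe sets to 0.05. The count of all features past the adjusted p was 48, and 7 with 1 probe set per gene, 10 after averaging the probe sets of a gene and 24 by the ordinary test. The meningeal marker mean differed by 0.12 with Dcn and by -0.05 without it, an alternative chosen after seeing the data. The causes were not tested.

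The replicate numbers showed no pairing of the arrays: same-numbered arrays had correlations of their deviations of -0.0171, -0.235 and -0.186. Between knockout and wildtype arrays of different numbers they ran from -0.0131 to 0.212, and a pairing under other numbers was not tested. With the replicate number as a block the difference of Gpc3 was 0.44 (limma adjusted p = 0.508), 39 probe sets passed the adjusted p, and no call on a member altered.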
